A study of Mus musculus with 16 samples.

Results

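DNA methylation at 10 pluripotency genes (Pou5f1, Nanog, Dppa2, Dppa3, Dppa4, Zfp42, Tdgf1, Prdm14, Utf1 and Sall4) was measured in fibroblasts, a differentiated cell type. For each gene, all measured CpGs from 2 kb before the gene start to the gene end were taken. These were 581 of the 1203687 CpGs on 16 chromosomes that reached 10 reads in each of the 16 libraries. The authors had left out the sex chromosomes and those of abnormal copy number in at least 1 line. Any autosomal gene left out in this way counts below among those with under 3 measured CpGs. The libraries came from target capture bisulfite sequencing, in which chosen genomic regions are captured with probes and unmethylated cytosines are then converted chemically. The cells were fibroblasts of 2 sibling C57BL/6J embryos at E13.5, immortalised by passaging through crisis, and called MEF-1 and MEF-2. Each parental culture was sequenced once, and each also gave 7 clonal lines that had grown from single sorted cells. No line received a treatment or carried an engineered allele. The 2 embryos differ in sex and in culture history as well as in origin, so these cannot be told apart in any comparison of the families. The lines of a family all came from 1 culture, so their spread is that between founder cells of 1 culture and not between embryos.

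Pluripotency genes hold embryonic stem cells and early embryonic cells in a state from which all tissues can form. Their core is a set of transcription factors that switch each other on. When cells differentiate, this circuit is shut down, and DNA methylation of the promoter is a known part of the lasting silencing of several of its genes. A CpG is methylated or not on each DNA strand, so a level between 0 and 100% in a culture is a mixture of cells, of gene copies or of strands.

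The promoter window ran from 1000 bp before to 500 bp after the gene start, and the body from there to the gene end. Of the 10 genes, 9 had at least 3 measured CpGs in the promoter window. Dppa3 had 0 of the 32 CpGs in its window. The number ranged from 5 of 32 reference CpGs in Sall4 to 36 of 71 in Utf1, and in both genes all of these lay after the start. A promoter level below is the percentage of all reads over these CpGs that were methylated. Libraries held 59243669 to 90633091 calls in all (1 call is 1 read over 1 CpG), and the median coverage of the 581 CpGs was 27 reads. Of the 8 chromosomes that hold the genes, 6 had a coverage shifted by more than 0.1 of the usual in 1 to 4 clonal lines, and these lines are named beside the results they touch. MEF-1 lines 1, 4 and 5 were alike at these CpGs, with a mean absolute difference of 9.39 to 10.2 points between them against a median of 11.7 over the 21 pairs of MEF-1 lines, and lines 2 and 3 differed by 9.97 points. MEF-2 lines 2 and 7 differed by 11.9 points against a median of 14.9. In both families the 7 lines may thus stand for fewer independent ones, which would make p-values too low.

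Stretches from 5 promoter windows are shown first, taken from the promoters with the highest levels (Dppa4, Nanog), the lowest levels (Utf1, Prdm14) and the largest differences between the families (Prdm14, Sall4). Each is the stretch with the most measured CpGs outside untranslated regions, read 5′ to 3′ on the strand of the gene from the GRCm38 (mm10) reference. Measured CpGs are in capitals.
Dppa4, chr16:48283927-48284020, plus strand: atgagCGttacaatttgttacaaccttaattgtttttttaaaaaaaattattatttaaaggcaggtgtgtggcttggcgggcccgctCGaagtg
Nanog, chr6:122707022-122707162, plus strand: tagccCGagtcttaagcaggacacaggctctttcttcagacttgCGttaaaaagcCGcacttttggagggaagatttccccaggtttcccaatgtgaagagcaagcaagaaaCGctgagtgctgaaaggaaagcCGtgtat
Utf1, chr7:139944071-139944228, plus strand: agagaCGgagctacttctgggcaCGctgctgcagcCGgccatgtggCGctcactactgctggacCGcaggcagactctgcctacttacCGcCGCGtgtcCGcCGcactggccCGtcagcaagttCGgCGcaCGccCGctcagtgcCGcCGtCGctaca
Prdm14, chr1:13127971-13128106, minus strand: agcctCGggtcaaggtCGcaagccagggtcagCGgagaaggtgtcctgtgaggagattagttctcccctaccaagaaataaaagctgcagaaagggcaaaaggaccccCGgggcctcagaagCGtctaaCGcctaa
Sall4, chr2:168767465-168767522, minus strand: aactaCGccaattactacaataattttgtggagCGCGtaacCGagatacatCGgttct
The Dppa4 and Sall4 stretches are intronic, the Utf1 stretch is coding exon, and the Nanog and Prdm14 stretches lie before the gene start. Averaged over their capital CpGs, the levels in MEF-1 and MEF-2 clonal lines were 98.4 and 84.9% in Dppa4, 46.0 and 68.4% in Nanog, 12.7 and 9.75% in Utf1, 6.35 and 35.2% in Prdm14, and 68.6 and 50.7% in Sall4. The Utf1 stretch packs 18 CpGs into 158 bp and the Dppa4 stretch has 4 in 94 bp.

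Most of these promoters were partly methylated in fibroblasts. All 9 had a mean level of 10 up to 90% over the 14 clonal lines, with a median of 59.3%, whereas 43.7% of the 11874 promoters measured lay in that range and their median was 8.10%. Within a family, and at these CpGs, Prdm14 fell below 10% in MEF-1 lines (6.97%) and Utf1 in MEF-2 lines (9.06%). In order of the mean over both families they were Dppa4 (70.6%), Nanog (69.0%), Pou5f1 (66.2%), Tdgf1 (64.3%), Sall4 (59.3%), Zfp42 (56.8%), Dppa2 (33.1%), Prdm14 (17.8%) and Utf1 (11.3%). Neighbours in this order overlapped over the 14 lines with 1 exception, the step of 23.7 points from Zfp42 to Dppa2, which held in 14 of 14 lines. Part of the order differed between the families. Prdm14 was below Utf1 in 7 of 7 MEF-1 lines and above it in 7 of 7 MEF-2 lines, in both cases with no overlap, at the CpGs of the table. In MEF-1 this order turned with other CpGs: with a minimum of 5 reads the parental culture had 17.8% at Prdm14 and 8.62% at Utf1, and at less deeply read reference CpGs outside the table the lines averaged 26.7 and 15.3%. At the CpGs of the table, 5 of 32 in Sall4, Sall4 was above Zfp42 in 7 of 7 MEF-1 lines and in 1 of 7 MEF-2 lines. At reference CpGs outside it Sall4 lay far below Zfp42 in both families, at 25 to 34.5% against 66.7 to 77.5% in MEF-1 and 25.9 to 38.5% against 58.7 to 92.3% in MEF-2 lines. The order of the genes thus holds for the CpGs of the table. From Dppa4 to Sall4, by contrast, a gene stood above its neighbour in 2 to 5 of 7 MEF-1 lines and in 2 to 6 of 7 MEF-2 lines.

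**Figure D1:**
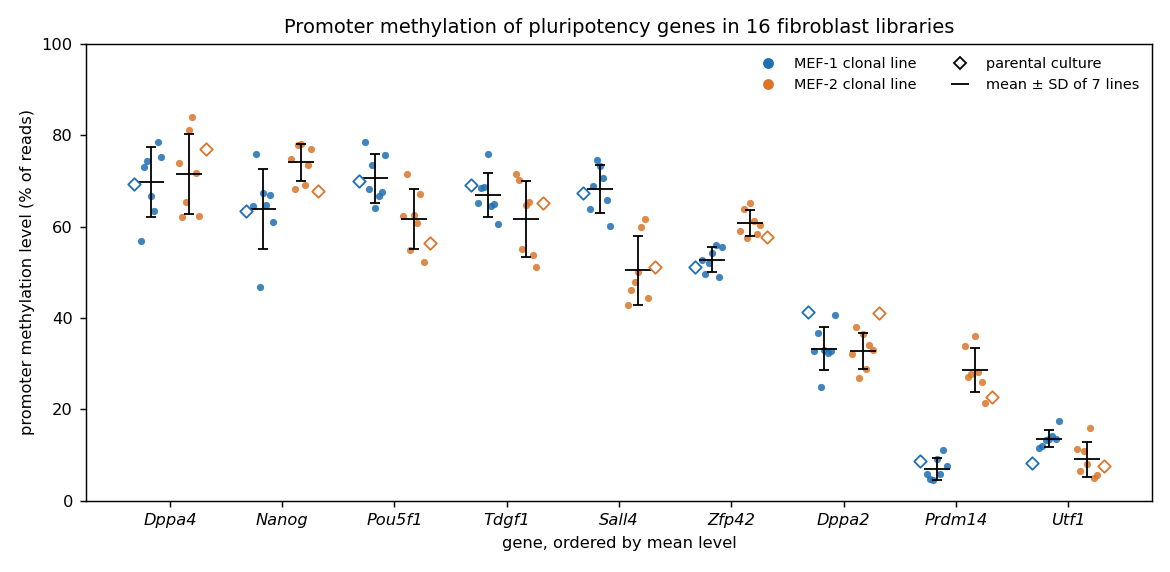
Promoter methylation level (y axis, percent of reads) of the 9 genes with measured promoters, ordered by mean level. Points are clonal lines, diamonds are parental cultures, and bars give the mean ± SD of 7 lines. Prdm14 separates the families fully, with MEF-1 lines up to 11% and MEF-2 lines from 21.5%.

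To compare the families, read counts of all 11874 promoters were fitted with a logistic model that allows for spread between lines (quasi-binomial), and a promoter was called where the p-value adjusted over all of them was under 0.05. Of the 9 promoters, 6 were called, 3 higher in MEF-1 (Pou5f1, Sall4, Utf1) and 3 higher in MEF-2 (Nanog, Zfp42, Prdm14). Among all promoters 42.3% were called, 26.3% higher in MEF-1 and 16% higher in MEF-2, so calls were common throughout. The median absolute difference of the 9 was 8.07 points against 2.19 points over all promoters. Of all promoters, 54.7% had a mean level under 10%. Promoters of like level were not compared, here or in the shares of all promoters given below. Single CpGs were fitted in the same way, and 20.2% of all CpGs and 9.34% of those in all tested promoters were called. The calls of Prdm14, Sall4 and Zfp42 were kept without any single line, whereas those of Pou5f1, Nanog and Utf1 were not.

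Pou5f1 encodes OCT4, a POU-domain transcription factor at the centre of the circuit, and lies at chr17:35506018-35510772 on the plus strand. Its 9 promoter CpGs had 64.1% in the lowest, 68.2% in the median and 78.5% in the highest MEF-1 line, and 52.4, 62.4 and 71.6% in MEF-2 lines. The 2 ranges overlapped, with means of 70.6% ± 5.31 and 61.7% ± 6.62 (SD, n = 7 each). The difference of 8.89 points was called (adjusted p = 0.0368; two-sided exact permutation test, p = 0.0181), but the call was lost without any one of MEF-1 lines 1, 3 and 7 and MEF-2 lines 1, 3, 4, 5 and 7 (adjusted p = 0.0516 to 0.0771). MEF-1 line 1 had a coverage of 0.840 of the usual on chromosome 17. The parental cultures had 69.9% (95% Wilson interval 64.2 to 75.1) in MEF-1 and 56.5% (50.5 to 62.3) in MEF-2. With a minimum of 5 reads, where 25 CpGs entered, the difference was 17.3 points (adjusted p = 0.000227, quasi-binomial model over all promoters). The 25 reference CpGs of the window outside the table had 56.3% ± 5.34 and 46.0% ± 4.89 (SD, n = 7 each, not tested).

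Within this window the CpGs differed more among themselves than the families did. In the coding sequence, 3 CpGs at 414, 418 and 429 bp after the start had means of 92.3 to 100% in both families, whereas the CpG at 370 bp ranged from 13.6 to 57.9% in MEF-1 and from 0 to 35.0% in MEF-2 lines. Before the start, the CpG at 232 bp was the called one, with 81.9% ± 17.1 and 45.0% ± 23.4 (SD, n = 7 each).

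Parts of the Pou5f1 region outside the promoter divided the families without overlap. Between 2 and 1 kb before the start, 10 CpGs had 49.7 to 60.5% in MEF-1 lines and 22.0 to 43.8% in MEF-2 lines, with no overlap, and the parental cultures had 57.3% (51.7 to 62.7) and 30.2% (25.2 to 35.6). Here 4 CpGs were called, all higher in MEF-1. At 1973 bp before the start MEF-1 lines had 93.6% ± 6.93 and MEF-2 lines 3.81% ± 4.46 (SD, n = 7 each), while the next measured CpG, at 1899 bp, had 2.40 and 0%. The gene body of 49 CpGs had 52.9% ± 2.28 and 41.6% ± 3.07 (SD, n = 7 each), a difference of 11.3 points (adjusted p = 6.69e-05; exact permutation test, p = 0.000583, as low as 7 lines a side can give). All 14 fits without a line kept this call. The body was not uniform: 12 CpGs at 1.5 to 2.5 kb had 23.7% ± 5.53 and 26.3% ± 7.56, and 10 CpGs beyond 3 kb had 60.5% ± 3.21 and 65.6% ± 5.40 (SD, n = 7 each), both with overlap. Of the body CpGs, 13 were called higher in MEF-1 and 4 higher in MEF-2. Over the whole Pou5f1 region 32.4% of 68 CpGs were called, against 20.2% of all CpGs. The largest difference of any CpG in the 10 genes lay in a Pou5f1 intron at chr17:35508662, 2644 bp after the start. It was at 98.0% ± 3.83 in MEF-1 lines and 5.61% ± 6.20 in MEF-2 lines (SD, n = 7 each), and the parental cultures had 100 and 21.7%. An antisense gene, Gm19553, overlaps the end of Pou5f1 and holds 10 of its CpGs.

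**Figure D2:**
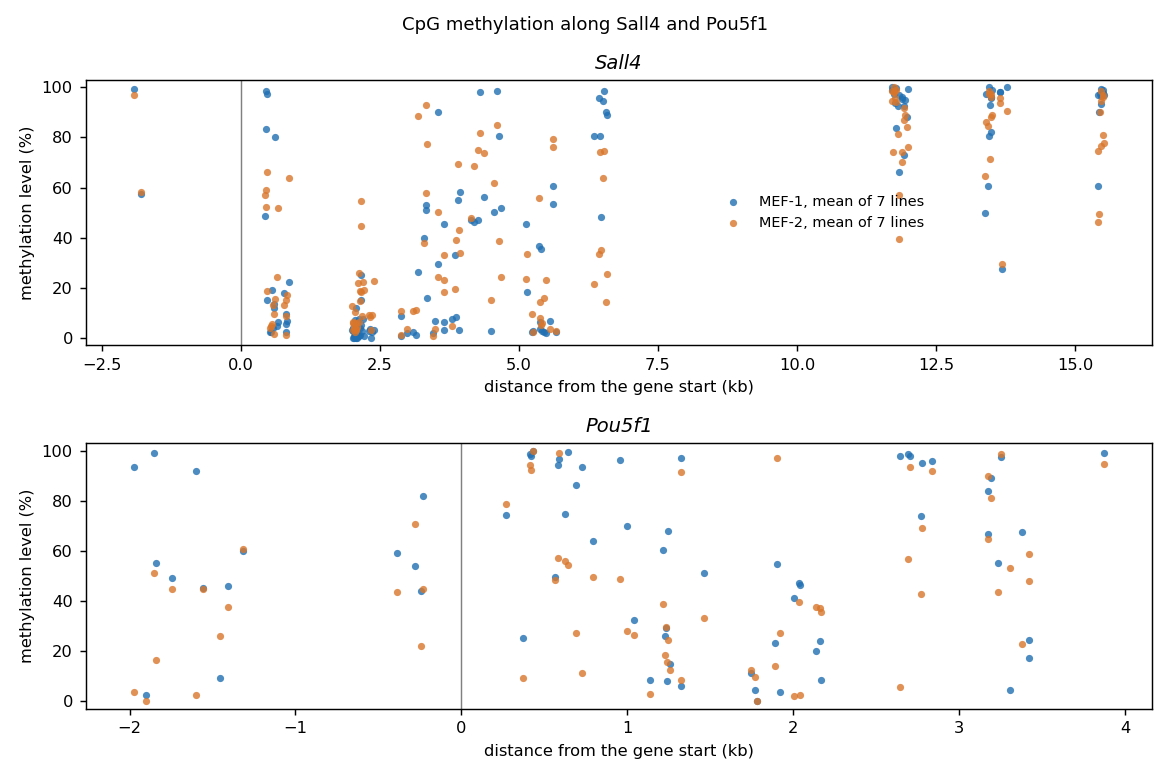
Mean methylation level of each CpG over 7 clonal lines per family (y axis, percent) against its distance from the start of Sall4 or Pou5f1 (x axis, kb). In Sall4 the CpGs 0.5 to 3 kb after the start are mostly under 20% and those beyond 10 kb mostly over 60%, while in Pou5f1 high and low CpGs alternate throughout.

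Nanog encodes a homeobox transcription factor of the same core and lies at chr6:122707489-122714633 on the plus strand. Its promoter had 46.7, 64.8 and 75.9% in the lowest, median and highest MEF-1 line and 68.3, 74.8 and 78.0% in MEF-2 lines. The families overlapped only by MEF-1 line 2, at 75.9%. Means were 63.9% ± 8.86 and 74.1% ± 4.03 (SD, n = 7 each), and MEF-1 line 3 was the lowest. The difference of −10.3 points was called (adjusted p = 0.0278; exact permutation test, p = 0.00816), but not without MEF-1 line 7 or without MEF-2 line 7 (adjusted p = 0.0517 to 0.0537). Thinned to 10 reads per CpG it was −6.55 points and not called. The parental cultures were at 63.5% (58.1 to 68.6) and 67.9% (63.4 to 72.1), nearer to each other than the lines. The 14 reference CpGs of the window read outside the table, with sparse reads, had the opposite order, 87.6% ± 8.47 in MEF-1 and 82.4% ± 5.12 in MEF-2 lines (SD, n = 7 each, not tested).

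Of the 12 Nanog CpGs, 4 were called, beside 9.34% of the CpGs of all tested promoters. Of the 4, 3 lay in the stretch shown above and 1 after it, and they did not all point the same way. In that stretch the level dropped from 98.7% ± 3.33 at 423 bp before the start to 9.16% ± 7.55 at 355 bp and 2.80% ± 2.79 at 333 bp in MEF-1 lines (SD, n = 7 each). MEF-2 lines had 97.7% ± 3.88, 25.8% ± 27.1 and 46.3% ± 15.0 at the same CpGs (SD, n = 7 each). The CpG at 333 bp had the largest difference in the gene (adjusted p = 4.56e-05, quasi-binomial model over all CpGs). In contrast, the CpG at 223 bp before the start was higher in MEF-1, at 98.9 against 74.0%. The gene body was nearly fully methylated, with 89.1 to 94.9% in MEF-1 and 84.9 to 92.7% in MEF-2 lines, and the difference was not called (1.44 points, adjusted p = 0.36; exact permutation test, p = 0.311).

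Sall4 encodes a zinc finger transcription factor that acts with OCT4 and NANOG, and it lies at chr2:168748332-168767943 on the minus strand. Its 5 promoter CpGs are those of the stretch above, within the first intron. The levels were 60.3, 69.0 and 74.6% in the lowest, median and highest MEF-1 line and 42.8, 47.9 and 61.7% in MEF-2 lines. Only MEF-2 line 6 (61.7%) reached the MEF-1 range, above MEF-1 line 7 (60.3%). The difference of 17.8 points was called (adjusted p = 0.00127; exact permutation test, p = 0.00117), and it was larger than that of 93.8% of all promoters. It was kept in all 14 fits without a line, MEF-2 line 3 included, whose coverage of chromosome 2 was 0.784 of the usual. Parental cultures had 67.3% (60.6 to 73.4) and 51.2% (44.5 to 57.8), close to the means of their lines. The value rests on 5 of 32 CpGs, and with a minimum of 5 reads, where 7 CpGs entered, it was 10.2 points (adjusted p = 0.0184, quasi-binomial model over all promoters). The 18 reference CpGs of the window read outside the table, with sparse reads, had the opposite order, 29% ± 3.59 in MEF-1 and 34.0% ± 4.06 in MEF-2 lines (SD, n = 7 each, not tested).

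This level hides opposite differences at CpGs a few bases apart. At 455 and 463 bp after the start MEF-1 lines had 98.5% ± 2.57 and 97.2% ± 2.61, and MEF-2 lines 52.2% ± 12.5 and 18.9% ± 17.2 (SD, n = 7 each). At 473 bp, 10 bp further, MEF-1 lines had 15.2% ± 12.8 and MEF-2 lines 66% ± 24.5 (SD, n = 7 each). All 3 CpGs were called, and the CpG at 463 bp had the largest difference (adjusted p = 4.47e-05, quasi-binomial model over all CpGs). Its MEF-1 lines lay between 92.6 and 100% and its MEF-2 lines between 2.78 and 55.8%.

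The Sall4 body, with 144 the one with the most measured CpGs among the 10 genes, had 46.1% ± 1.48 and 44.6% ± 3.64 (SD, n = 7 each), a difference of 1.43 points that was not called (adjusted p = 0.492; exact permutation test, p = 0.346). This near equality was the sum of unlike parts. The 47 CpGs within 3 kb of the start averaged 7.31% ± 1.73 in MEF-1 and 13.7% ± 3.42 in MEF-2 lines, and the 52 CpGs beyond 6 kb averaged 89.3% ± 1.24 and 77.1% ± 3.23 (SD, n = 7 each). The gap was widest at 6 to 7 kb, where 8 CpGs had 84.6% ± 3.12 against 42.9% ± 11.3 (SD, n = 7 each), and 82.9 against 62.4% in the parental cultures. Of the 151 Sall4 CpGs, 25 were called higher in MEF-1 and 14 higher in MEF-2. In all 25.8% were called, near the 20.2% of all CpGs. A transcript on the other strand, Gm14261, overlaps the start of the gene and holds 20 of its CpGs.

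Prdm14 encodes a PR-domain protein that keeps stem cells from differentiating and is needed for germ cell formation, and it lies at chr1:13113457-13127163 on the minus strand. Among the 9 promoters measured, it showed the largest difference. The promoter had 4.6, 5.85 and 11% in the lowest, median and highest MEF-1 line and 21.5, 27.9 and 36.1% in MEF-2 lines, with no overlap. The means of 6.97% ± 2.37 and 28.7% ± 4.88 (SD, n = 7 each) differed by −21.7 points (adjusted p = 5.87e-06; exact permutation test, p = 0.000583). This was larger than the difference of 96.0% of all promoters, and all 14 fits without a line kept the call. The parental cultures had 8.73% (5.84 to 12.9) and 22.6% (17.6 to 28.6), and 17.8 and 24.0% with a minimum of 5 reads. The value rests on 8 of 44 reference CpGs. Of these 8, 7 lay 979 to 813 bp before the start and the last lay 495 bp after it, with none in between. The other 36, read outside the table with sparse reads, had 26.7% ± 5.66 in MEF-1 and 36.3% ± 9.60 in MEF-2 lines (SD, n = 7 each), with overlap and not tested. MEF-1 lines 5 and 7 had a coverage of 0.827 and 0.882 of the usual on chromosome 1, and without both the difference was −21.6 points (adjusted p = 0.000106, quasi-binomial model over all promoters). With a minimum of 5 reads, where 21 CpGs entered, it was −13.4 points (adjusted p = 0.00248, quasi-binomial model over all promoters).

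The only 2 called CpGs of the Prdm14 promoter were neighbours at the end of the stretch shown above. At 820 bp before the start MEF-1 lines had 3.30% ± 4.89 and MEF-2 lines 66.6% ± 16.5, and at 813 bp they had 10.8% ± 17.0 and 92.5% ± 8.44 (SD, n = 7 each). At 813 bp, 6 of 7 MEF-1 lines lay between 0 and 14.3% and line 7 was at 47.8%, while MEF-2 lines lay between 76.5 and 100%. Another CpG only 14 bp before these, at 834 bp, was low in both families (10.9% ± 20.3 and 11.2% ± 19.9, SD, n = 7 each). A second group of called CpGs lay 1037 to 1006 bp before the start, where 3 CpGs had means of 16.2 to 57.1% in MEF-2 lines and 0.714 to 11.6% in MEF-1 lines.

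The first 2 kb of the Prdm14 gene after the promoter, with 52 CpGs, stayed low, at 12.5% ± 2.14 and 17.9% ± 3.69, whereas the 6 CpGs between 8 and 13 kb averaged 78.3% ± 4.63 and 76.7% ± 5.94 (SD, n = 7 each). Over the whole body of 59 CpGs the levels were 18.7% ± 2.52 and 24.8% ± 3.95 (SD, n = 7 each), a called difference of −6.05 points (adjusted p = 0.00829; exact permutation test, p = 0.00466). It was not called with a minimum of 20 reads (−4.51 points) or without MEF-1 lines 1, 3, 6 and 7 together (−6.14 points, adjusted p = 0.0835, quasi-binomial model over all gene bodies).

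Zfp42 encodes REX1, a zinc finger protein widely used as a mark of naive pluripotency, and it lies at chr8:43295063-43306980 on the minus strand. Its 23 promoter CpGs had 49.0, 52.6 and 56.0% in the lowest, median and highest MEF-1 line and 57.5, 60.3 and 65.3% in MEF-2 lines. The ranges did not overlap, although they were only 1.47 points apart. The difference of −8.07 points was called (adjusted p = 0.000922; exact permutation test, p = 0.000583), and all 14 fits without a line kept the call, MEF-1 line 1 with a coverage of 0.864 of the usual on chromosome 8 included. Parental cultures had 51.1% (47.6 to 54.6) and 57.8% (54.1 to 61.5). With a minimum of 20 reads it was −16.9 points (adjusted p = 0.00565, quasi-binomial model over all promoters), and with a minimum of 5 reads −8.14 points. The 14 reference CpGs of the window read outside the table, with sparse reads, did not show this order, with 71.0% ± 3.86 in MEF-1 and 69.6% ± 11 in MEF-2 lines (SD, n = 7 each), with overlap and not tested. The pooled level of the 23 CpGs had SDs of 2.75 and 2.88 points between lines. Single CpGs were less uniform, with a range of at least 50 points at 3 of the 23 CpGs in MEF-1 and at 13 in MEF-2.

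Along the promoter, the 9 CpGs from 300 to 50 bp before the start were low in MEF-1 (21.9% ± 3.59) and higher in MEF-2 (39.2% ± 8.13), and the 6 CpGs from 500 to 340 bp before it were high in both (78.1% ± 2.50 and 70.2% ± 5.67; SD, n = 7 each). The largest difference lay at 171 bp before the start, with 5.24% ± 3.70 in MEF-1 and 60.6% ± 22.6 in MEF-2 lines (SD, n = 7 each). Against this trend, the CpG at 87 bp before the start was at 59.0% ± 9.19 in MEF-1 and 13.7% ± 5.85 in MEF-2 lines (SD, n = 7 each). Of the 23 CpGs, 7 were called higher in MEF-2 and 2 higher in MEF-1, beside 4.02 and 5.32% of the CpGs of all tested promoters. The body was highly methylated, at 89.2% ± 2.02 and 85.6% ± 2.29 (SD, n = 7 each). Its difference of 3.60 points was called (adjusted p = 0.0294; exact permutation test, p = 0.00874), in the direction opposite to the promoter, but the call was lost without any one of MEF-1 lines 1, 4 and 5 and MEF-2 lines 2 and 7 (adjusted p = 0.0505 to 0.0598). With a minimum of 20 reads it was 10.4 points.

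**Figure D3:**
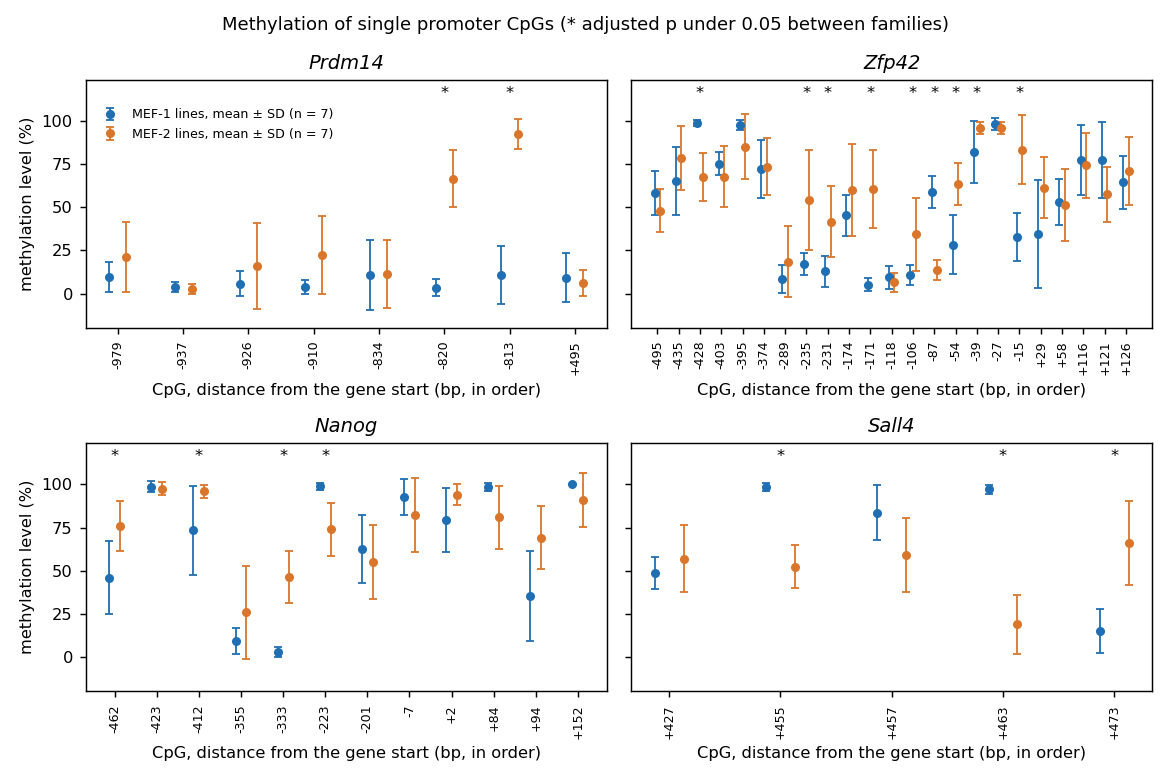
Methylation level of each measured promoter CpG (y axis, percent, mean ± SD of 7 lines per family) in order of its distance from the gene start (x axis, bp) in Prdm14, Zfp42, Nanog and Sall4. Stars mark CpGs called between the families, and in Sall4 the CpGs at 463 and 473 bp differ by 78.3 and −50.8 points, in opposite directions.

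Utf1 encodes a chromatin-bound factor of undifferentiated embryonic cells and lies at chr7:139943789-139945112 on the plus strand. Its window was the densest in CpGs, with 71 in the reference, and its level was the lowest of the 9 in MEF-2 lines, while in MEF-1 lines that of Prdm14 was lower. The 36 measured CpGs, all in coding exon, had 11.4, 13.4 and 17.4% in the lowest, median and highest MEF-1 line and 4.97, 8.12 and 15.9% in MEF-2 lines. The difference of 4.57 points was called (adjusted p = 0.0422; exact permutation test, p = 0.0204), but not without any one of MEF-1 lines 2 to 7 or MEF-2 lines 2, 4, 6 and 7 (adjusted p = 0.0534 to 0.0812). Coverage of chromosome 7 was 0.816 to 0.899 of the usual in MEF-1 lines 1, 3, 6 and 7. Without these 4 lines the difference was 4.21 points and not called (adjusted p = 0.243, quasi-binomial model over all promoters). All 7 MEF-1 lines stood above their parental culture, which had 8.25% (6.68 to 10.1), while 4 of 7 MEF-2 lines stood above theirs (7.65%, 6.14 to 9.50). The difference also rests on which CpGs are read. With a minimum of 5 reads, 64 CpGs entered and it was 0.662 points and not called (adjusted p = 0.781, quasi-binomial model over all promoters). The other 35 reference CpGs of the window were read less deeply and unevenly between lines, with 7269 reads in the 16 libraries. They had 15.3% ± 4.04 in MEF-1 and 23.6% ± 7.72 in MEF-2 lines (SD, n = 7 each), the opposite order, which was not tested.

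Methylation in Utf1 was uneven between neighbouring CpGs. In MEF-1 lines the CpG at 262 bp after the start was at 64.2% ± 10.9, and its neighbours at 257 and 266 bp were at 8.61 and 6.01%. In MEF-2 lines the same CpG was at 5.49% ± 6.99 (SD, n = 7 in both families). The adjusted p over all CpGs was 2.98e-05. The reverse was seen at 287 bp, the first capital CpG of the stretch above, with 8.95% ± 11.6 in MEF-1 and 45.0% ± 19.3 in MEF-2 lines (SD, n = 7 each). The body had 16.4% ± 2.41 and 10.7% ± 3.09 (SD, n = 7 each), a called difference of 5.71 points (adjusted p = 0.00915; exact permutation test, p = 0.00466) that was kept in all 14 fits without a line but not without MEF-1 lines 1, 3, 6 and 7 together (adjusted p = 0.15).

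Dppa2 and Dppa4 are neighbouring genes whose SAP-domain proteins work as a pair on promoters of early embryonic genes, at chr16:48303908-48319723 and chr16:48283733-48294237 on the plus strand. Neither promoter was called. Dppa2 had 25, 32.8 and 40.6% in the lowest, median and highest MEF-1 line and 26.9, 33.0 and 38.1% in MEF-2 lines, a difference of 0.51 points (adjusted p = 0.956; exact permutation test, p = 0.828). At the CpGs of the table, all 14 lines lay below their parental culture, which had 41.3% (35.8 to 47.2) in MEF-1 and 41.2% (35.5 to 47.0) in MEF-2. Over the 12 positions of the window read outside the table the order was opposite. There the parental cultures had 54.8 and 37.0%, and the lines averaged 65.3% in MEF-1 and 41.6% in MEF-2, which was not tested. At the CpG 437 bp after the start the parental cultures had 42.9 and 46.5%, and the lines fell into levels near those and levels near 0. MEF-1 lines 1, 4 and 5 had 41.4 to 46.9% and the other 4 lines 3.03 to 11.1%, and MEF-2 lines 1, 5 and 6 had 36.4 to 46.9% and the other 4 lines 0 to 7.14%. Dppa4 had 56.9, 73.0 and 78.6% in MEF-1 and 62.0, 71.7 and 84.0% in MEF-2 lines, a difference of −1.82 points (adjusted p = 0.972; exact permutation test, p = 0.684). When 5 reads were enough, the Dppa4 difference was 2.78 points and not called, and its MEF-1 parental level went from 69.4 to 81.0%. The Dppa4 value rests on 6 of 21 reference CpGs, and 14 outside the table, read less deeply, had 88.9% ± 4.6 in MEF-1 and 80.4% ± 7.74 in MEF-2 lines (SD, n = 7 each), which was not tested. MEF-1 line 6 had a coverage of 0.780 of the usual on chromosome 16.

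The 6 reference CpGs of the Dppa2 window outside the table, read less deeply, had 66.9% ± 6.92 in MEF-1 and 42.7% ± 12.4 in MEF-2 lines (SD, n = 7 each), which was not tested. Single CpGs of both promoters were called. In Dppa4 the CpG at 18 bp after the start had 53.9% ± 11.1 in MEF-1 and 94.3% ± 4.38 in MEF-2 lines (SD, n = 7 each). Its adjusted p over all CpGs was 6.45e-05. Just after it, the 2 intronic CpGs of the stretch above were at 98.4% each in MEF-1 and at 85.0 and 84.8% in MEF-2 lines. In the Dppa2 promoter the called CpG lay 300 bp before the start (86.2% ± 8.27 in MEF-2 lines), and levels alternated from there, from 97.3% ± 3.98 at 300 bp before the start to 8.60% ± 7.68 at 264 bp and 77.0% ± 18.3 at 110 bp in MEF-1 lines (SD, n = 7 each). The Dppa2 body of 12 CpGs separated the families, with 56.8 to 69.9% in MEF-1 and 32.9 to 55.0% in MEF-2 lines, a difference of 18.8 points (adjusted p = 0.00177; exact permutation test, p = 0.000583). The body call was lost without MEF-1 lines 1, 3, 6 and 7 together (15.7 points, adjusted p = 0.0553, quasi-binomial model over all gene bodies). Of the 18 Dppa2 CpGs, 33.3% were called, against 20.2% of all CpGs. All 6 called CpGs of Dppa2 were higher in MEF-1, led by a coding CpG 11961 bp after the start with 94.4% ± 9.21 against 28.8% ± 14.4 (SD, n = 7 each). With 1 measured CpG, the Dppa4 body was not tested.

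Dppa3 encodes STELLA, which protects methylation marks in the egg and early embryo, and lies at chr6:122626410-122630272 on the plus strand. With no measured CpG in its promoter window, only the flanks can be described. The 6 CpGs between 2 and 1 kb before the start had 38.8 to 59.8% in MEF-1 and 27.2 to 62.5% in MEF-2 lines, and the 12 body CpGs 22.3 to 44.5% and 26.3 to 45.4%. The body difference was −2.32 points and not called (adjusted p = 0.590; exact permutation test, p = 0.523). The first measured body CpG lay 1258 bp after the start. The 7 CpGs from there to 1.5 kb averaged 11.3% ± 3.84 and 11.6% ± 6.63 (SD, n = 7 each). The average of the 5 CpGs beyond ranged from 51.8 to 72.8% between MEF-1 lines and from 52.3 to 70.1% between MEF-2 lines. One CpG was called, 1363 bp before the start at chr6:122625047, with 93.9% ± 4.33 in MEF-1 and 49.0% ± 6.91 in MEF-2 lines (SD, n = 7 each). Its adjusted p over all CpGs was 1.81e-05.

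Tdgf1 encodes CRIPTO, a cell-surface co-receptor for the signalling protein NODAL, and is the only member that acts at the cell membrane. It lies at chr9:110939603-110946158 on the minus strand, and no line had a shifted coverage of chromosome 9. Its 29 promoter CpGs had 60.7, 65.3 and 75.9% in the lowest, median and highest MEF-1 line and 51.2, 64.8 and 71.5% in MEF-2 lines. The difference of 5.22 points was not called (adjusted p = 0.233; exact permutation test, p = 0.171). In MEF-2, lines 3, 6 and 7 were at 51.2 to 55.1% and the other 4 lines at 64.8 to 71.5%. The parental cultures had 69.1% (66.2 to 71.8) and 65.1% (62.1 to 68.0). The 18 reference CpGs of the window outside the table, read less deeply, were at higher levels, 86.9% ± 2.48 in MEF-1 and 89.1% ± 2.44 in MEF-2 lines (SD, n = 7 each, not tested).

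The body of Tdgf1, by contrast, separated the families, with 58.0 to 67.4% in MEF-1 and 43.4 to 56.0% in MEF-2 lines, a difference of 14.4 points (adjusted p = 0.000428; exact permutation test, p = 0.000583). Again the direction turned within the gene. At 1.5 to 2 kb, 13 CpGs had 66.1% ± 2.79 against 38.3% ± 3.39, and at 2.5 to 3 kb, 5 CpGs had 63.9% ± 5.08 against 85.8% ± 10.6 (SD, n = 7 each). The CpG with the largest difference, 1832 bp after the start in an untranslated exon, had 96.8% ± 4.93 against 9.79% ± 19.4 (SD, n = 7 each). Its adjusted p over all CpGs was 0.000121.

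**Figure D4:**
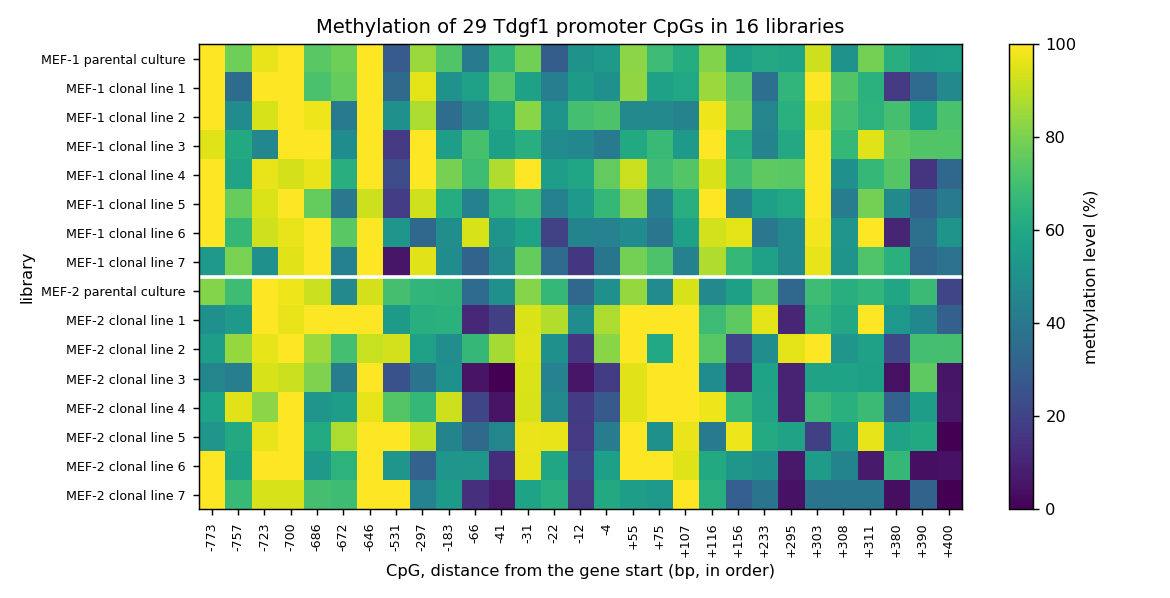
Methylation level (colour, percent) of the 29 measured Tdgf1 promoter CpGs (x axis, in order of distance from the gene start in bp) in the 16 libraries (y axis, MEF-1 above the white line and MEF-2 below). The CpGs at 700 and 646 bp before the start are high in every library (means of 97.6 to 98.9% in the lines), and the CpG at 295 bp after it ranges from 4.88 to 95.7% between MEF-2 lines.

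Across the gene bodies, 6 of the 9 tested were called, against 47.8% of the 13855 bodies measured. Pou5f1, Dppa2, Tdgf1, Utf1 and Zfp42 were higher in MEF-1 and Prdm14 was higher in MEF-2, while Nanog, Dppa3 and Sall4 were not called. Where both were called, promoter and body pointed the same way in Pou5f1, Utf1 and Prdm14 and opposite ways in Zfp42. Only in Prdm14 were both calls kept without any single line. The promoter calls of Pou5f1 and Utf1 and the body call of Zfp42 were lost in 8, 10 and 5 of 14 such fits. With a minimum of 5 reads the Utf1 promoter difference was 0.662 points. Of the 581 CpGs, 132 (22.7%) were called, 84 higher in MEF-1 and 48 higher in MEF-2. Among all CpGs measured, 20.2% were called, 11.6% higher in MEF-1 and 8.53% higher in MEF-2, so the share over whole regions is close to the background. Among the 134 promoter CpGs, 31 were called (23.1%), against 9.34% of the CpGs of all tested promoters, which was not tested. All 10 genes had at least 1 called CpG, and 7 had called CpGs in both directions. Of the called CpGs, 28 differed by at least 50 points. No share over all CpGs or all genes was taken for these counts, so they cannot be read as particular to these genes.

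Spread between the lines of 1 family was described by the range of a CpG, the difference between its highest and lowest line. In MEF-1, 100 of the 581 CpGs (17.2%) had a range of at least 50 points, where 11.4% of all CpGs did. In MEF-2 it was 201 CpGs (34.6%), where 17.0% of all CpGs did. The range depends on depth, with 177 and 267 CpGs when thinned to 10 reads, and the median coverage was 27 reads here and 32 over all CpGs. The share was larger in MEF-2 in 7 of the 10 genes, and highest there in Dppa4 (57.1% of 7 CpGs) and Tdgf1 (54.4% of 57). Nanog and Dppa3 had the larger share in MEF-1 (34.8 and 38.9%), and Dppa2 the same share in both (22.2%). Sall4 went from 9.27% in MEF-1, the lowest of all, to 33.8% in MEF-2.

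The shares were also read against the parental level. The parental level was between 10 and 90% at 46.8% (MEF-1) and 56.6% (MEF-2) of the 581 CpGs, against 31.2 and 35.7% of all CpGs. Among CpGs with such a parental level, 29.4% had a range of at least 50 points in MEF-1, where all CpGs had 30.7%, and 50.5% in MEF-2, where all CpGs had 41.0%. The variance between lines beyond read sampling, as a share of the largest possible at the same mean levels, was 0.117 in MEF-1 (jackknife SE over lines 0.00850) and 0.176 in MEF-2 (0.0117). Over all CpGs it was 0.108 (0.00930) and 0.15 (0.0108), and the difference from all CpGs was not tested. CpGs under 10% or over 90% in all 16 libraries were rare in these genes, with 16 and 26 of 581 (2.75 and 4.48%) against 22.0 and 11.4% of all CpGs.

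**Figure D5:**
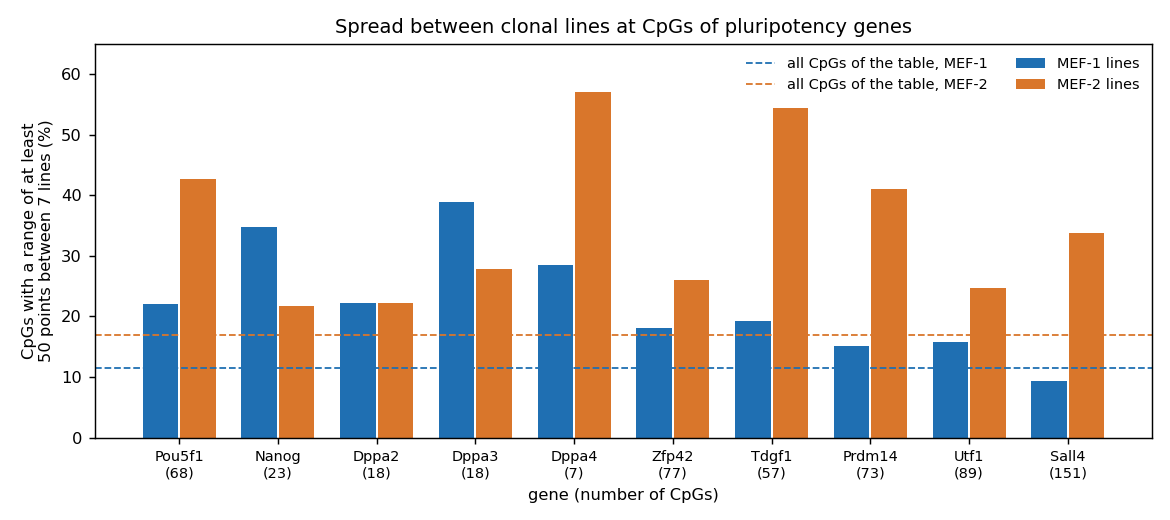
Share of the CpGs of each gene (y axis, percent) whose highest and lowest clonal lines differ by at least 50 points, in MEF-1 (blue) and MEF-2 (orange), with the number of CpGs under each gene. Dashed lines give the share over all CpGs of the table, 11.4% in MEF-1 and 17.0% in MEF-2, and only Sall4 in MEF-1 lies below its line.

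The widest ranges reached or came close to 100 points. In MEF-2 the intronic Pou5f1 CpG at chr17:35509397 was at 100% in line 4, at 41.4% in line 5 and at 0 to 9.38% in the other 5 lines, and its parental culture had 4.08% of 49 reads. The intronic Prdm14 CpG at chr1:13126374 was at 100% in line 6 and 61.1% in line 4, with 0 to 15.4% in the other 5 lines and 30.0% in the parental culture. In MEF-1 the widest range, 94.4 points, was at the coding Utf1 CpG at chr7:139944037, with 100% in line 2, 92.0% in line 3 and 5.56 to 30.4% in the other 5 lines.

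Neighbouring CpGs of these genes often differed in level. Levels were averaged over the clonal lines of each family separately. Each of the 497 pairs of measured neighbours within 100 bp then gave a difference in MEF-1 and another in MEF-2. The median of these differences was 10.2 points, and 21% of them were at least 30 points. In the whole table the values were 2.74 points and 16.7%. Among promoter CpGs alone the median was 14.0 points against 1.34, and 25.2 against 6.44% of differences were at least 30 points. The whole table holds more CpGs at or under 10% in all 16 libraries (22.0 against 2.75% here), neighbours at like levels were not compared, and the difference was not tested. Only 2 of the 134 promoter CpGs were at or under 10% in all 16 libraries (1.49%), where 52.2% of the CpGs of all tested promoters were.

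For each called promoter, the 3 other promoters with the closest levels over the 16 libraries were found by the mean absolute difference. They were Gckr, Gdpd4 and Crybg1 for Pou5f1 (3.83 to 4.12 points), Ecm1, Ntn1 and Rbp7 for Nanog (3.94 to 4.45), and Npy5r, Spp2 and Cpne7 for Zfp42 (2.29 to 3.46). For Prdm14 they were Atp6v0e, Arhgef3 and Trnt1 (2.86 to 3.36), for Utf1 Prrt3, Epha6 and Paox (1.76 to 2.09), and for Sall4 Bend7, Ephx4 and Vwa3b (4.47 to 4.85). These are likenesses of level and say nothing about shared control.

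Other genes of the pluripotency network were read in the same fit. Of a list of 40, 30 had a promoter that could be tested, 9 had under 3 measured CpGs and 1 is not on an autosome. Of the 30, 13 were called, 9 higher in MEF-1 and 4 higher in MEF-2, a share near the 42.3% of all promoters. Their median level was 22.8%, between the 59.3% of the 9 promoters above and the 8.10% of all promoters. Levels ran from 0.899% in Klf4, a reprogramming factor that fibroblasts also express, to 81.5% in Dppa5a, an RNA-binding protein of stem cells. The largest differences toward MEF-1 were in Epcam, an epithelial adhesion molecule (56.3% ± 11 against 20.6% ± 9.10), Zscan4c, a gene of the earliest embryo (82.2% ± 5.91 against 52.7% ± 10.7), and Fgf4, a signal that primes stem cells for differentiation (30.5% ± 9.76 against 10.9% ± 8.73; SD, n = 7 each). Toward MEF-2 they were in Klf5 (41.6% ± 4.57 against 54.2% ± 3.53) and Tfcp2l1 (8.70% ± 1.81 against 14.0% ± 2.03), transcription factors of naive stem cells, and in Nodal, the ligand that needs CRIPTO (50.8% ± 1.90 against 59.8% ± 3.28; SD, n = 7 each). These 3 were not called with a window of 500 bp on both sides, where the differences were −1.16, −1.79 and −0.211 points, and Nodal was not called with a minimum of 5 reads (−3.51 points). Epcam had 21.2 points with a minimum of 5 reads, and Fgf4 was not called without MEF-1 lines 1, 4 and 5 (19.5 points). Sox2, the partner of OCT4, had 7.82% ± 2.71 and 6.72% ± 2.23 (SD, n = 7 each) and was not called (adjusted p = 0.457; exact permutation test, p = 0.422).

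Marker genes put these levels in context. Of 15 fibroblast genes, only 5 had a testable promoter, and none of the collagen genes on the list did, so the cell type could not be checked from them in full. Twist2, Fn1 and Vim were at 1.62, 1.63 and 1.46% over the 14 lines, S100a4 at 58.7%, and Pdgfra, a growth factor receptor of fibroblasts, at 53.0% ± 1.76 in MEF-1 and 3.27% ± 1.46 in MEF-2 lines (SD, n = 7 each), the 1 called gene, whose difference of 49.7 points was 26.5 with 500 bp on both sides. Of 12 germ cell genes, 5 had under 3 measured CpGs, 1 was not matched and 6 were testable, with levels from 75.8% (Piwil2) to 98.4% (Dazl). Among these Sycp3, Piwil2 and Sycp1 were called, all higher in MEF-2, by −16.5, −14.0 and −4.77 points, beside 42.3% of all promoters called and 16% called higher in MEF-2. With a minimum of 5 reads Piwil2 had −5.10 points and Sycp1 turned to 4.24 points, and with a minimum of 20 reads Piwil2 had −36.6 points. In a window before the start alone, Sycp3 had −8.70 points and Sycp1 was not called (−2.24). In MEF-1 lines the lowest of them, Piwil2 with 68.8% ± 6.06 (SD, n = 7), was level with Dppa4 and Pou5f1, at 69.7 and 70.6%. In MEF-2 lines it was not, with Piwil2 at 82.8% ± 6.33 (SD, n = 7) and Dppa4 and Pou5f1 at 71.5 and 61.7%.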

How the data were processed

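Fibroblast DNA from 2 parental cultures and 14 clonal lines was measured by target capture bisulfite sequencing. Per the study's methods, the authors used Trim Galore 0.6.0 and Bismark on mm10, kept reads of mapping quality 10 or more, and combined both strands of a CpG. Removal of duplicates is not stated, so intervals cover counting error only. The deposited values are counts of methylated and unmethylated reads per CpG and library, not normalized. They cover CpGs that reached 10 reads in each library, on the chromosomes that the authors kept. All 19258992 of these values equalled the deposited tables of single libraries. The fidelity score (a fraction), neighbour score and percent columns deposited by the authors are not reported.

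The genes and lists were chosen with earlier results of these data known. Gene positions came from GENCODE M21, and all 581 CpGs lie at a CG of GRCm38. Nanog, Tdgf1, Dppa3 and Zfp42 have annotated pseudogene copies, and reads from copies were not tested for. Promoters, gene bodies and CpGs were fitted with a quasi-binomial logistic model (F-test, dispersion not below 1, 14 clonal lines, NumPy 2.4.6 and SciPy 1.17.1) that was tested on simulated data, with Benjamini-Hochberg adjustment over all features fitted. Two-sided exact permutation tests of 7 against 7 lines, which can reach 0.000583 at the lowest, were added per gene. Each clonal line was grown separately from its sorted cell. Line numbers were checked as pairs and are unrelated between the families. Named were the 10 genes, for each the called CpG with the largest difference, for each family the CpG with the widest range, up to 3 called genes per direction of each list with its highest and lowest gene, and the 3 closest promoters. Other CpGs in the text were chosen after their values were seen. The borders of the groups of CpGs averaged within a promoter or gene body were not set beforehand either, so opposite directions between such groups are descriptions only. Alternatives changed coverage, depth, promoter window, level, dispersion and lines.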

Additional observations from a re-analysis of the deposited data

Results flagged for a closer look

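In 1 of 44 groups of 7 lines, a line stood apart from the rest. MEF-2 line 7 had 43.8% of 274 reads over the 10 CpGs 2 to 1 kb before Pou5f1, while the next highest line had 31.1%. About 1 in 20 such groups is picked out by chance.

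No CpG of the Dppa3 promoter window passed 10 reads in all libraries, but 33 positions, 31 of them CpGs of the reference, had reads in at least 1 library. Over these, 122 of 137 reads were methylated in the MEF-1 lines (89.1%) and 58 of 142 in the MEF-2 lines (40.8%). Per line there were 1 to 47 reads in MEF-1 (80.0 to 100%) and 12 to 36 in MEF-2 (14.3 to 58.3%), and the parental cultures had 5 and 13 reads. Different lines cover different CpGs, so the difference was not tested.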

How the results depend on the processing

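No alternative reversed a called difference of the 10 genes. The 10 named CpGs kept direction and call in 220 of 220 values. They were chosen for the largest called differences in the same data, so this says little about them. Under the alternative of a difference of at least 20 points, their fit was the main one unchanged. Without 1 line, 3 to 5 of the 9 promoters, 5 to 6 gene bodies, 111 to 126 CpGs and 12 to 13 genes of the network list were called, the median absolute promoter difference was 7.32 to 8.62 points, and 78 to 100 (MEF-1) and 157 to 201 (MEF-2) CpGs had a range of at least 50 points. With at least 20 reads, 153 CpGs and 4 promoters were left, of which 35 and 2 were called, with 8 network genes and with 19 and 49 CpGs of a wide range. Thinned to 10 reads, 177 CpGs had a wide range in MEF-1 and 267 in MEF-2. Of 90 parental promoter levels under alternatives, 21 moved by more than their interval reaches to either side. Called promoters fell from 6 to 3 without MEF-1 lines 1, 4 and 5 (81 CpGs called), and, chosen after seeing the data, to 3 without MEF-1 lines 5 and 7 and to 3 without MEF-1 lines 1, 3, 6 and 7 (2 bodies, Pou5f1 and Tdgf1, and 73 CpGs called), in each case by the loss of Pou5f1, Nanog and Utf1. With a difference of at least 20 points, 1 promoter (Prdm14) and 2 network genes remained. Among the lists, Sycp1 turned to 4.24 points with at least 5 reads, where more CpGs enter, and the cause was not tested. With the line number as a replicate block 3 promoters, 5 bodies, 108 CpGs and 11 network genes were called, but the same numbers do not pair the lines (correlations of deviations −0.00432 to 0.00353, 0 of 7 lines closest to their own number). No value could be had with at least 20 reads for the promoters of Pou5f1, Nanog, Dppa4, Prdm14 and Sall4, with a window of 1000 bp before the start alone for Dppa4, Sall4 and Utf1, or with 500 bp on both sides for Prdm14. Depth limits a single CpG to about 27 reads per library.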
